A study of Mus musculus with 6 samples.

Results

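The 41 genes described here encode the steps of glycolysis and the cell's response to low oxygen. They were picked by symbol from the 24346 genes listed for each sample, without a threshold on measured values. Earlier results of these data were known when they were picked. They comprise 2 glucose transporters, 9 enzymes of upper glycolysis, 2 enzymes that set fructose-2,6-bisphosphate, 6 enzymes of lower glycolysis, 5 genes of lactate and pyruvate handling, 3 genes of oxygen sensing and 14 targets of the hypoxia response. Of these, 35 had a mean of at least 1 FPKM (fragments per kilobase of transcript and per unit of library size) over the 6 samples and were tested. The other 6, Slc2a3, Aldoc, Pfkfb3, Ldhb, Egln3 and Ak4, lay below that level.

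RNA sequencing was performed on CT26, a mouse colorectal tumor cell line. In all 6 samples the cells overexpressed mouse MR1, the molecule that presents small metabolites to mucosal-associated invariant T cells. The 3 parental samples, which are the control, were CT26.mMR1 cells with no further treatment named. The label CT26_cl9 is shared by all 6 samples. The 3 M8 samples were a mutant of these cells made with the mutagen ENU, grown from limiting dilution as a single clone and picked in screens that included its surface MR1, so M8 stands for 1 mutant clone. The study describes such replicates as biological, but the labels do not say whether they were separate cultures, and p-values measure the spread between these samples.

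Glycolysis splits glucose into pyruvate, and tumor cells commonly reduce much of that pyruvate to lactate even where oxygen is present. When oxygen is plentiful, prolyl hydroxylases (the Egln enzymes) mark the transcription factor subunit HIF1A for degradation through VHL. When oxygen is short, HIF1A persists, pairs with ARNT and binds hypoxia response elements, whose core reads ACGTG or GCGTG, near genes for glucose transport, glycolysis, acid export, collagen hydroxylation, angiogenesis and removal of mitochondria. Many glycolytic genes are therefore hypoxia targets as well.

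Promoter windows of the genes were searched for such cores. RefSeq windows running from 250 bases before to 50 bases after a transcription start matched 38 of the 41 genes by symbol, with 59 windows in all. ACGTG or GCGTG, on either strand, lay in 46 of the 59 (78%), beside 43.8% of the 32851 windows of all genes. ACGTG alone lay in 52.5% of these windows and in 19.6% of all windows. GCGTG lay in 55.9% and 32.4%, and the longer form ACGTGC, which contains ACGTG, in 32.2% and 5.91%. The E-box CACGTG, which also contains ACGTG and is bound by factors such as MYC and MXI1, lay in 11.9% of the windows and in 7.15% of all windows. A match of letters is a description and no evidence of binding, and base composition was not compared. The 250 bases before 1 start are printed for Pfkm, Eno2 and Mxi1, which were lower in M8, and for Bnip3, whose level differed widely between parental libraries and which was picked with its values already in view. The window of Eno1, with 2 matches to GCGTG, lies largely in an exon of another of its transcripts and is not printed. The build is GRCm38.p6, and capitals mark every match to one of these 4 motifs on either strand.
Mxi1, chr19:53329163-53329412, plus strand, with ACGTGC starting 66 bases before the start:
Mxi1: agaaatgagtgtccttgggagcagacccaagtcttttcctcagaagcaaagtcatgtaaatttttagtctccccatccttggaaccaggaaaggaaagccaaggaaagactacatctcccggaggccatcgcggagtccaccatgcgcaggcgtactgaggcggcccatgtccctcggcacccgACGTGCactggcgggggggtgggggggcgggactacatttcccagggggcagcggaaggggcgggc
Bnip3, chr7:138909507-138909756, minus strand, with ACGTGC on both strands around a CACGTG and with 3 matches to GCGTG:
Bnip3: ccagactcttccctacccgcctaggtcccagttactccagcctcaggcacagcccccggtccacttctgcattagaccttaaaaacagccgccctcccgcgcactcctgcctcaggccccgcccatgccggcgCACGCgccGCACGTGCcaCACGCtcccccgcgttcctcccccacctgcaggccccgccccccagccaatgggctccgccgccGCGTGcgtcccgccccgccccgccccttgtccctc
Pfkm, chr15:98092339-98092588, plus strand, the window with the most upstream of its starts and with a CACGTG:
Pfkm: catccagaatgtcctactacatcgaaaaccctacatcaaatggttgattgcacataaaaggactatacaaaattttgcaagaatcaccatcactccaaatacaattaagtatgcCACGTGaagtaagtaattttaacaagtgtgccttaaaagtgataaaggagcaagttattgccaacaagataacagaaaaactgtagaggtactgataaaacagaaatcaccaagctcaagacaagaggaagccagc
Eno2, chr6:124769674-124769923, minus strand, with none of the 4 motifs:
Eno2: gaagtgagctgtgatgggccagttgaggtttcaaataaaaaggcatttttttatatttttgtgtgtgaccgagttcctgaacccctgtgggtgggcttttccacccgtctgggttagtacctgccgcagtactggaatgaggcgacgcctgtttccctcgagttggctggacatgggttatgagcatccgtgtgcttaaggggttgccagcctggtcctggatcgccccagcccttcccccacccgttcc

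Over all genes the replicates of a group were alike. Pearson correlations of log2 values across genes were 0.9935 to 0.9952 within the groups, and no library stood apart. FPKM values summed to between 593635 and 630264 a sample. The files hold no counts, but the steps of low FPKM values put the sequencing depth of the other samples at 0.772 to 1.07 times that of parental replicate 1, with the 3 M8 libraries the shallowest. Against the label of colon, the epithelial markers Epcam, Cdh1, Krt19 and Cdx2 were listed at 0 in all 6 samples and Krt8 and Vil1 lay below 1 FPKM. Of the 8 epithelial markers, 2 were above it, Krt18 (32.5 ± 6.97 FPKM in parental and 36.4 ± 1.85 in M8) and the intestinal keratin Krt20 (17.4 ± 2.36 and 11.9 ± 0.979), which was lower in M8 by limma (-0.50, adjusted p = 0.00438). All 5 mesenchymal markers were above 1 FPKM and summed to 2469 to 2899.9 FPKM in parental and 2588 to 2679 in M8, with Vim the highest. Of these, Fn1 was lower in M8 (-0.35, adjusted p = 0.000917) and Cdh2 higher (0.13, adjusted p = 0.0550, called in 2 of the 6 fits that left out a library). The part of these markers in the results below was not tested. None of the leukocyte, endothelial or erythroid markers exceeded 1 FPKM. In bulk RNA, a smaller share of cells expressing a gene and less of its RNA per cell cannot be told apart.

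Within this set of genes, however, the 3 parental libraries were not alike. Parental replicate 1 had the lowest parental value in 30 of the 35 genes tested, as against 36.9% of all 10597 genes tested, and parental replicate 2 had the highest in 32, as against 30.3%. The median range between the parental libraries was 0.47 on the log2(FPKM + 1) scale for the 35 genes and 0.14 for all genes. Among the M8 libraries the median range was 0.15, beside 0.11 for all genes. M8 replicate 1 was lowest in 25 genes, as against 31.6% of all genes, and M8 replicate 3 highest in 26, as against 30.6%. Relative to each gene's mean over the 6 samples, the median of the 35 genes was -0.28 in parental replicate 1, 0.19 in replicate 2 and 0.074 in replicate 3. In M8 it was -0.080, -0.0090 and 0.045. The hypoxia targets spread more widely, with medians of -0.30, 0.28 and 0.20 in the parental libraries and -0.22, -0.094 and 0.019 in M8. The plot of deviations by sample shows these positions gene by gene.

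**Figure D1:**
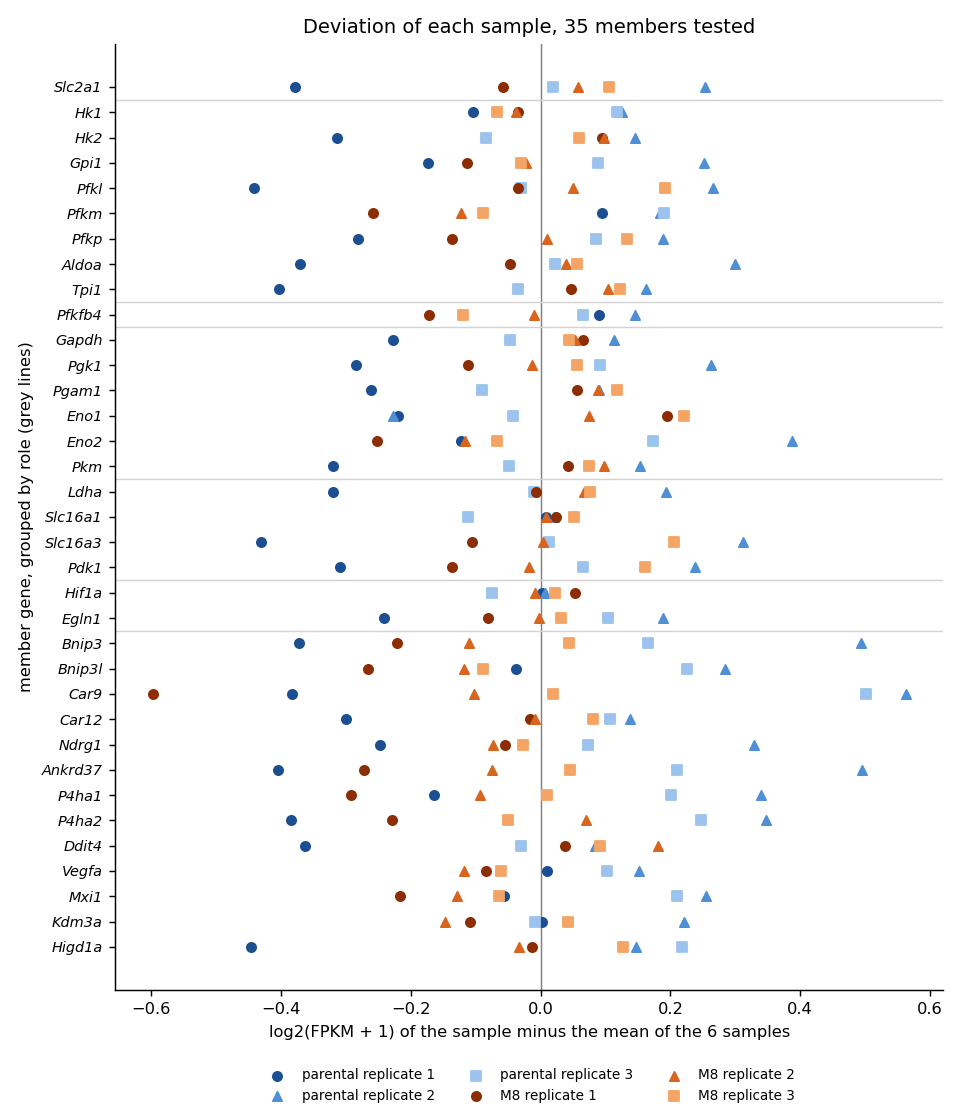
Level of each of the 35 genes tested in each of the 6 samples, as log2(FPKM + 1) minus the mean of the 6 samples (horizontal axis), with 1 point a sample and genes grouped by role (vertical axis). Parental replicate 1 is the lowest parental library in 30 of 35 genes and parental replicate 2 the highest in 32 of 35.

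Many of the genes with the largest excess of parental replicate 2 over replicate 1 belonged to the set. The pair and direction follow the set's own lowest and highest parental libraries, so the share below is a description and no independent test. Other pairs and the opposite direction were not ranked. Of the 8547 genes with a mean of at least 5 FPKM, the 50 with the largest excess of parental replicate 2 over replicate 1 included 17 of the 33 genes of the set that were ranked (51.5%, beside 0.585% of all ranked genes). A further 7 of the 50 were genes of the other glycolysis and hypoxia lists described below. Car9, a carbonic anhydrase at the cell surface, led the set with a difference of 0.95 on the log2 scale, followed by the ankyrin repeat gene Ankrd37 at 0.90 and the mitophagy receptor Bnip3 at 0.87. The median difference was 0.47 for the set and 0.0068 for all ranked genes. The keratin Krt18 also differed, at 24.5 FPKM in parental replicate 1 and 36.6 in replicate 2. What distinguished the cultures or the libraries was not tested. Because single parental libraries can set the direction of a gene, the calls below are also given with libraries left out.

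The comparison of M8 with parental cells addresses how expression in the mutant clone differs from that in the cells it came from. With all 6 samples, few of these genes differed. Only Eno1, an enolase, was higher in M8, by 0.33 on the log2(FPKM + 1) scale. 6 genes were lower, by 0.18 to 0.31: the phosphofructokinase Pfkm, the second enolase Eno2, the fructose-2,6-bisphosphate enzyme Pfkfb4, the mitophagy receptor Bnip3l, the angiogenic factor Vegfa and the MYC antagonist Mxi1. The remaining 28 genes did not pass limma's test at a Benjamini-Hochberg adjusted p below 0.1. On this scale the fold change of genes at a few FPKM is understated.

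These counts were set beside those of all genes. The gene that was higher made up 2.86% of the 35, whereas 21.2% of all genes tested were higher, and the 6 that were lower made up 17.1%, whereas 16.5% of all genes were lower. This background was itself split by scaling, with 2250 genes higher and 1745 lower on FPKM, 1658 and 2209 after rescaling to TPM, and 1848 and 2154 after upper-quartile scaling. The set gave 1 higher and 8 lower on TPM, where 15.6% and 20.8% of all genes were called, and 1 higher and 6 lower after upper-quartile scaling, with 17.4% and 20.3%. M8 and parental values did not overlap in 6 of the 35 genes (17.1%), as against 45.2% of all genes. M8 lay above in 1 and below in 5, as against 24.8% and 20.4% of all genes. The median log2 fold change was 0.0042 for the set and 0.0069 for all genes, with 18 of the 35 estimates above 0 and 17 below.

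The glucose transporter Slc2a1 (GLUT1) stood at 70.0 ± 15.2 FPKM in parental and 72.5 ± 4.25 in M8 (SD, n = 3 each). The log2 fold change was 0.070. Parental replicate 1, at 54.1, and replicate 2, at 84.4, lay on either side of all 3 M8 libraries. Slc2a3 (GLUT3) was listed at 0 in all 6 samples.

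In upper glycolysis, 1 of 8 genes tested was lower (12.5%, beside 16.5% of all genes) and none higher (beside 21.2%), with a median log2 fold change of 0.019. Pfkm (chr15:98092589-98132451, plus strand, GRCm38), the muscle-type subunit of phosphofructokinase, which commits sugar to glycolysis, measured 18.4, 19.7 and 19.8 FPKM in parental replicates 1 to 3 and 14.2, 15.7 and 16.1 in M8. Every M8 value lay below every parental value, and parental replicate 1 was close to its fellows here. The log2 fold change was -0.31 (SE 0.0582, adjusted p = 0.00467), and the call held whichever library was left out, at -0.35 to -0.26. Pfkm overlaps Senp1 on the opposite strand, and whether strand was used in quantification is not given in the sources used here.

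The other phosphofructokinase subunits did not pass. The liver-type Pfkl, the most abundant, stood at 58.8 ± 14.3 FPKM in parental and 63.7 ± 5.15 in M8, and the platelet-type Pfkp at 14.6 ± 2.55 and 14.5 ± 1.44. The hexokinases, which trap glucose as glucose-6-phosphate, gave log2 fold changes of -0.093 for Hk1 and 0.17 for Hk2. Gpi1, the glucose-6-phosphate isomerase, gave -0.11, the triosephosphate isomerase Tpi1 0.18, and the aldolase Aldoa 0.033. Without parental replicate 1, Hk2 gave 0.053 and Tpi1 0.027, and without parental replicate 2 they gave 0.28 and 0.31. In the same fits Hk1 gave -0.17 and -0.054, and Gpi1 gave -0.23 and -0.013. Aldoa illustrates the spread, with 622, 991 and 818 FPKM in the parental libraries and 779, 828 and 837 in M8. Its brain form Aldoc was at most 0.338 FPKM and was not tested. Hk1, Pfkp, Aldoa, Tpi1, Gapdh and Ankrd37 each overlap a gene on the opposite strand, as Pfkm does.

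Fructose-2,6-bisphosphate, the strongest allosteric activator of phosphofructokinase, is made and removed by the Pfkfb enzymes. Pfkfb4 (chr9:108991778-109032228, plus strand) measured 3.41, 3.58 and 3.33 FPKM in parental and 2.67, 3.11 and 2.81 in M8. The groups did not overlap, and the log2 fold change was -0.20 (SE 0.0792, adjusted p = 0.0870). This call sat at the threshold: it held when M8 replicate 2 was left out, and was lost without parental replicate 1, 2 or 3 (-0.21, -0.18 and -0.22) and without M8 replicate 1 or 3 (-0.16 and -0.19). Its relative Pfkfb3 fell under the filter, at 0.511, 0.450 and 0.438 FPKM in parental and 0.604, 0.721 and 0.803 in M8. With no filter on low values its log2 fold change was 0.22 (SE 0.0540, adjusted p = 0.0453), and in that fit Pfkfb4 did not pass (adjusted p = 0.121). Pfkfb4 did not pass after quantile normalization either (-0.12, adjusted p = 0.273).

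Lower glycolysis, which yields ATP, had 1 gene higher and 1 lower of 6 (16.7% each, beside 21.2% and 16.5% of all genes), with a median log2 fold change of 0.13. The call higher was Eno1 (chr4:150236721-150248879, plus strand), the ubiquitous enolase, at 802, 798 and 906 FPKM in parental and 1069, 983 and 1088 in M8. All 3 M8 libraries lay above all parental ones. The log2 fold change of 0.33 (SE 0.0603, adjusted p = 0.00453) held in each of the 6 fits that left out 1 library, at 0.29 to 0.39.

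Eno1 shares its sequence with a second listed gene, Eno1b, whose transcript is 99.5% identical over 1736 aligned bases, so reads could be assigned to either. Eno1b measured 427, 687 and 447 FPKM in parental and 459, 607 and 463 in M8, and it took between 29.8% and 46.3% of the sum of the pair. In each group Eno1b was highest in replicate 2, the library in which Eno1 was lowest. The sum was 1229, 1485 and 1353 FPKM in parental and 1528, 1590.1 and 1551 in M8, a log2 fold change of 0.20 (SE 0.0638, adjusted p = 0.0410). The groups still did not overlap, but the estimate was smaller than for Eno1 alone. This sum was formed after the data were seen.

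Eno2 (chr6:124760053-124769673, minus strand), the neuronal enolase and a hypoxia target, moved the other way. It measured 43.7, 62.6 and 53.8 FPKM in parental and 39.9, 43.9 and 45.4 in M8. Parental replicate 1 lay inside the M8 range. The log2 fold change was -0.29 (SE 0.109, adjusted p = 0.0739) and passed in 1 of the 6 fits that left out a library, the one without parental replicate 1 (-0.43). Without parental replicates 2 and 3 it was -0.17 and -0.28, and without M8 replicates 1, 2 and 3 it was -0.24, -0.31 and -0.33, none of which passed. Nor did it pass with no filter on low values (adjusted p = 0.189) or in eBayes without a trend (adjusted p = 0.118).

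The other enzymes of this stage did not pass. Gapdh, the dehydrogenase at the head of lower glycolysis, gave 0.11, the phosphoglycerate mutase Pgam1 0.17 (adjusted p = 0.111), the pyruvate kinase Pkm 0.14 and the phosphoglycerate kinase Pgk1 -0.047. Without parental replicate 1, Gapdh gave 0.021 and Pkm 0.019, and without parental replicate 2 they gave 0.19 and 0.26. In the same fits Pgam1 gave 0.088 and 0.26. Gapdh was the most abundant gene of the set, at 2893, 3666 and 3279 FPKM in parental and 3545, 3515 and 3494 in M8. The M8 libraries lay close together and inside the parental range. Gapdh has 27 near-identical genes elsewhere in the annotation, mostly processed pseudogenes, Pgk1 has 3, and Pgam1, Pkm and, in upper glycolysis, Gpi1 have 1 each, so their levels are uncertain. Summed over the 15 enzymes of upper and lower glycolysis, FPKM came to 7909, 10489 and 9429 in parental and 9793, 9932 and 10080 in M8, which is 1.33%, 1.71% and 1.51% of all FPKM in parental and 1.55%, 1.58% and 1.62% in M8. The M8 share lay inside the parental range.

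None of the 4 lactate and pyruvate genes passed, where 21.2% of all genes were higher and 16.5% lower, with log2 fold changes between 0.0042 and 0.090. Ldha, the lactate dehydrogenase subunit that favours lactate, stood at 1313 ± 230.1 FPKM in parental and 1384 ± 43.3 in M8 (SD, n = 3). Its partner Ldhb was at 0.128 FPKM or less. The monocarboxylate transporters Slc16a1 and Slc16a3, which move lactate across the membrane, gave 0.055 and 0.070. Pdk1, a kinase that shuts off pyruvate dehydrogenase, gave 0.0042.

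**Figure D2:**
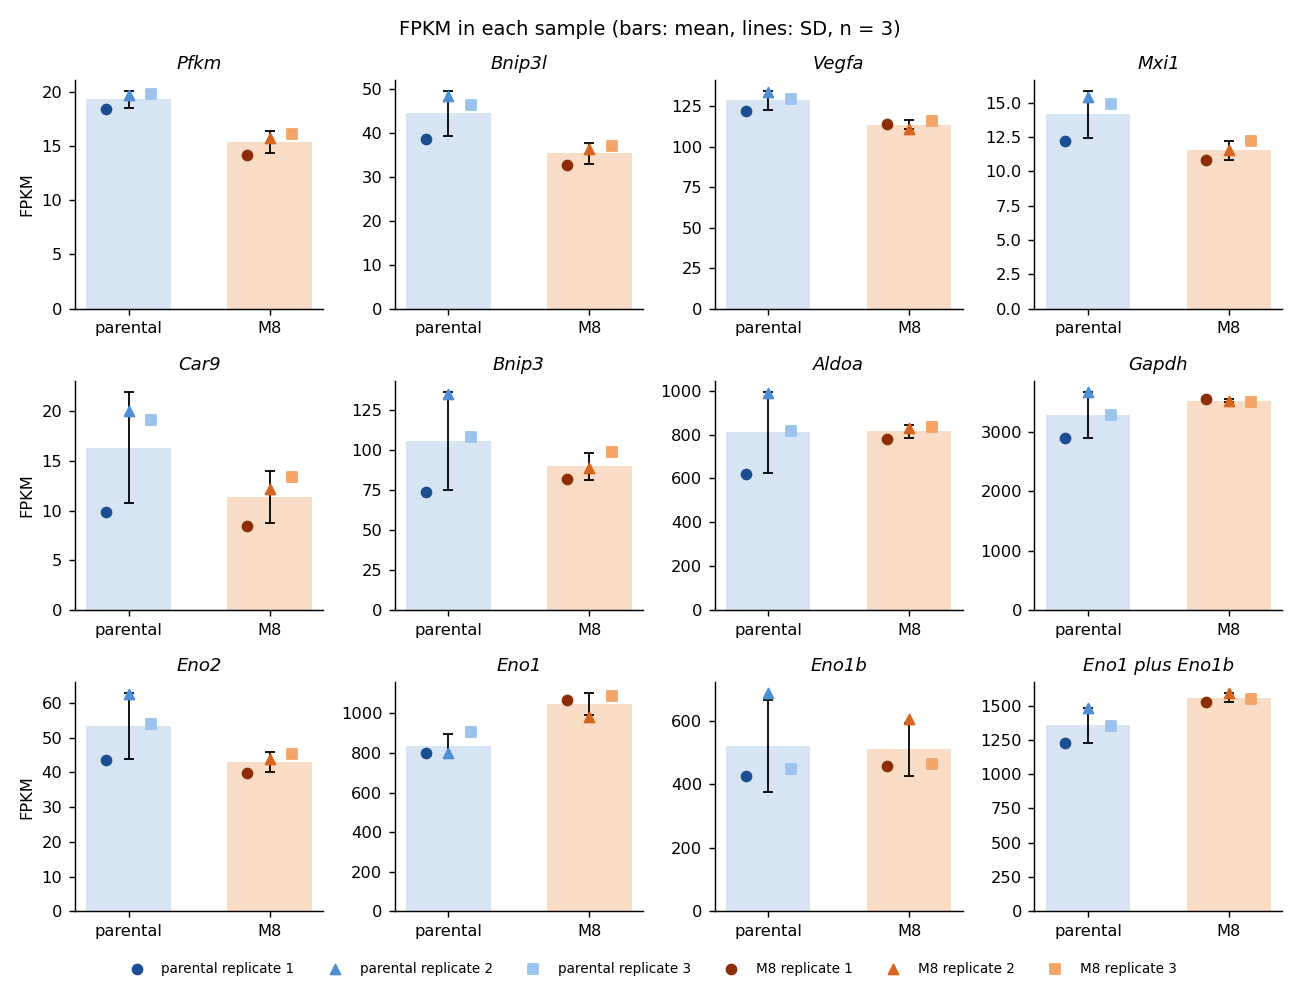
FPKM (vertical axes, each from 0) of 11 genes and of the sum of Eno1 and Eno1b in the 3 parental and 3 M8 samples. Points are samples, bars are means and lines are SD (n = 3). The groups separate for Pfkm, Bnip3l, Vegfa, Eno1 and the sum, and narrowly for Mxi1. The parental libraries spread widely for Car9, Bnip3 and Aldoa.

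The 2 oxygen-sensing genes tested did not pass (21.2% and 16.5% of all genes did, higher and lower). Hif1a measured 38.5, 38.6 and 36.5 FPKM in parental and 39.9, 38.2 and 39.1 in M8, a log2 fold change of 0.044 (SE 0.0432). In contrast to most of the set, Hif1a varied little between the parental libraries. Its hydroxylase Egln1 gave -0.034, and Egln3 was listed at 0 in all 6 samples. HIF1A is controlled chiefly as a protein, which these data do not measure.

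Of the 13 hypoxia targets tested, 3 were lower in M8 and none higher (23.1% lower, beside 16.5% of all genes, and 0% higher, beside 21.2%), with a median log2 fold change of -0.18 and 10 of 13 estimates below 0. Bnip3l (chr14:66985239-67008877, minus strand), also called Nix, tags mitochondria for removal. It measured 38.5, 48.3 and 46.4 FPKM in parental and 32.7, 36.3 and 37.1 in M8. The groups did not overlap, though parental replicate 1 came close to the highest M8 library. The log2 fold change was -0.31 (SE 0.0825, adjusted p = 0.0202) and passed in all 6 fits that left out 1 library, at -0.41 to -0.25. It shares sequence with the pseudogene Bnip3l-ps, so its level is uncertain.

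Vegfa (chr17:46016993-46032369, minus strand), which drives vessel growth, measured 122, 134 and 129.6 FPKM in parental and 114, 111 and 116 in M8. Every M8 value was below every parental one, and replicates were close in both groups. The log2 fold change was -0.18 (SE 0.0449, adjusted p = 0.0184), with calls in all 6 fits without a library, at -0.21 to -0.14. Mxi1 (chr19:53310518-53375810, plus strand), a MAX partner that opposes MYC, measured 12.2, 15.4 and 14.9 FPKM in parental and 10.8, 11.6 and 12.2 in M8. Parental replicate 1 and M8 replicate 3 all but met. Its log2 fold change was -0.27 (SE 0.0832, adjusted p = 0.0370), and the call was lost without parental replicate 2 (-0.21), parental replicate 3 (-0.23) or M8 replicate 1 (-0.23), and with no filter on low values (adjusted p = 0.103).

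The other 10 hypoxia targets did not pass, and their estimates ran from -0.45 to 0.21. Car9 had the lowest, with 9.90, 20.0 and 19.1 FPKM in parental and 8.40, 12.2 and 13.4 in M8. Parental replicate 1 sat with the M8 libraries, and the log2 fold change of -0.45 came with an SE of 0.237 (adjusted p = 0.182). Bnip3 measured 73.8, 135 and 108 FPKM in parental and 82.0, 88.7 and 98.8 in M8. The parental libraries enclosed the M8 ones, and the log2 fold change was -0.19 (SE 0.175). Bnip3 has 4 near-identical genes elsewhere in the annotation, so its level is uncertain as well.

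The collagen prolyl hydroxylases P4ha1 and P4ha2 gave log2 fold changes of -0.25 and -0.14, Ankrd37 -0.20, the histone demethylase Kdm3a -0.14 and Ndrg1, a stress-induced gene, -0.10. Above 0 were Ddit4, an inhibitor of mTORC1, at 0.21, Higd1a, a mitochondrial protein, at 0.054, and the carbonic anhydrase Car12 at 0.037. With single libraries left out, P4ha1 ran from -0.40 without parental replicate 1 to -0.14 without parental replicate 2, and P4ha2 from -0.37 to -0.00092 in the same fits. Ankrd37 ran from -0.45 to -0.0034, Ndrg1 from -0.25 to 0.035 and Ddit4 from 0.077 to 0.30 between these fits. Kdm3a ran from -0.20 without M8 replicate 3 to -0.068 without parental replicate 2. Ak4, an adenylate kinase, was at 0.00891 FPKM or less and was not tested.

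The direction of the set turned on which parental library was present. Without parental replicate 1, 16 of the 35 genes were lower in M8 (45.7%, beside 15.9% of all genes) and 1 higher (2.86%, beside 19.8%). The 16 were Bnip3l, Eno2, Mxi1, Pfkm and Vegfa from the full comparison, and Ankrd37, Bnip3, Car9, Egln1, Gpi1, Higd1a, Hk1, Ndrg1, P4ha1, P4ha2 and Pgk1. Among the hypoxia targets, 10 of 13 were then lower and the median was -0.37. Car9 reached -0.76, Ankrd37 -0.45 and Bnip3 -0.43.

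Without parental replicate 2 the picture was different. 8 genes were higher (22.9%, beside 18.0% of all genes) and 3 lower (8.57%, beside 12.6%). The genes higher were Ddit4, Eno1, Gapdh, Hk2, Pfkl, Pgam1, Pkm and Tpi1, and those lower were Bnip3l, Pfkm and Vegfa. Of the 14 glycolytic enzymes tested, 7 were higher, with a median of 0.19, where it was 0.070 with all libraries and -0.092 without parental replicate 1. The median of the hypoxia targets was -0.0034. Leaving out parental replicate 3 or M8 replicate 1, 2 or 3 gave 1 gene higher each, where 15.0% to 19.8% of all genes were higher. These fits gave 3, 3, 5 and 4 lower, where 14.1%, 10.8%, 11.8% and 12.9% of all genes were lower.

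Eno1, Pfkm, Bnip3l and Vegfa were the 4 genes called in the full comparison and in each of the 6 fits without a library. They make up 2.86% higher and 8.57% lower of the 35, beside 13.4% and 8.54% of all genes.

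**Figure D3:**
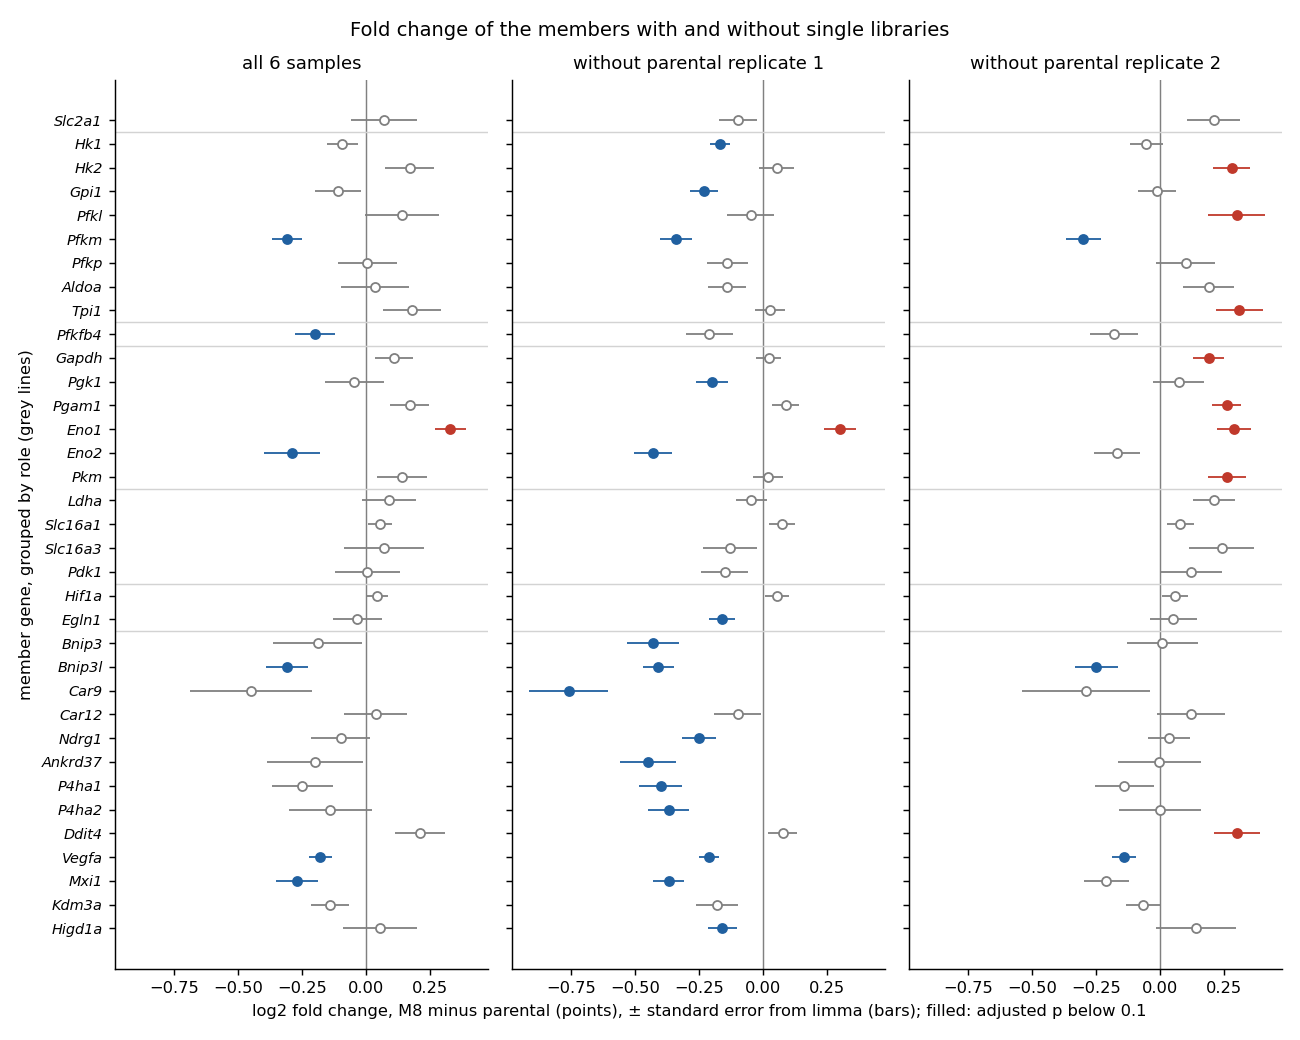
Log2 fold change, M8 minus parental (horizontal axis, log2(FPKM + 1) scale), of the 35 genes tested with all 6 samples (left), without parental replicate 1 (middle) and without parental replicate 2 (right). Lines are the standard error from limma, and filled points passed an adjusted p below 0.1. Filled points number 7 at the left, 17 in the middle, of which 16 are lower in M8, and 11 at the right, of which 8 are higher.

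Related enzymes were also compared within each sample, as log2 ratios of FPKM + 1. Of 13 pairs listed, 8 had both genes at a mean of at least 1 FPKM, and in 3 of these M8 and parental samples did not overlap. No share over other pairs of genes was computed. Among all single genes tested, 45.2% did not overlap. The log2 ratio of Pfkm to Pfkl was -1.22, -1.84 and -1.54 in parental and -1.98, -1.93 and -2.04 in M8, a difference of -0.45. This difference was -0.29 without parental replicate 1 and -0.60 without parental replicate 2. The log2 ratio of Eno2 to Eno1 was -4.17, -3.65 and -4.05 in parental and -4.71, -4.46 and -4.55 in M8, a difference of -0.62. It was -0.49 with Eno1b added to Eno1, again without overlap. The log2 ratio of Hk2, the inducible hexokinase, to Hk1 was -1.69, -1.46 and -1.68 in parental and -1.35, -1.34 and -1.35 in M8, a difference of 0.26. In these 3 ratios even the closest parental library lay outside the M8 range.

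Each of the 3 pairs reached p = 0.10 in the exact two-sided permutation test, the smallest that 3 against 3 samples allow, and 0.267 after adjustment over the 8 pairs, so none could pass at 0.1. The pairs Pfkp to Pfkl, Slc16a3 to Slc16a1, Bnip3l to Bnip3, Car12 to Car9 and P4ha2 to P4ha1 overlapped between groups, with differences of -0.13, 0.014, -0.12, 0.49 and 0.11.

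**Figure D4:**
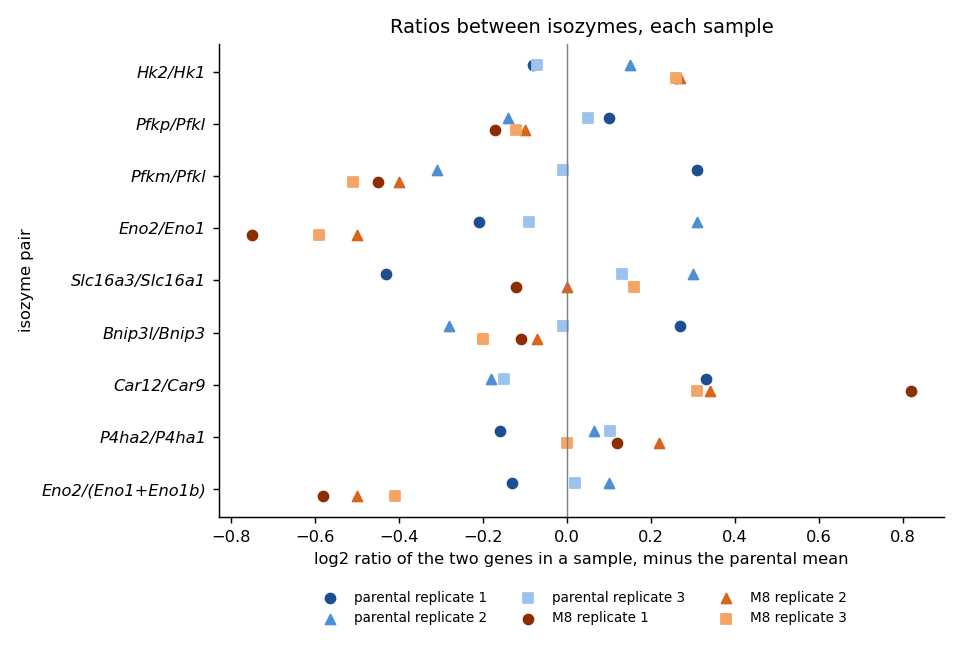
Log2 ratio of 2 related genes in each sample minus the mean of the 3 parental samples (horizontal axis), for 8 pairs and for Eno2 over the sum of Eno1 and Eno1b (vertical axis), with 1 point a sample. M8 and parental points separate for Hk2/Hk1, Pfkm/Pfkl and both Eno2 ratios.

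Other genes of the same pathways were followed from separate lists. Of 33 further genes of glycolysis and pyruvate metabolism, 21 were tested, 2 were higher in M8 (9.52%, beside 21.2% of all genes) and 5 lower (23.8%, beside 16.5%), with a median log2 fold change of -0.0012. The median range between parental libraries was 0.19, against 0.47 in the set. The 3 with the largest differences were all lower. Slc2a8, an intracellular glucose transporter, measured 6.63, 6.61 and 6.54 FPKM in parental and 5.07, 4.49 and 4.50 in M8, a log2 fold change of -0.42 (SE 0.0664, adjusted p = 0.00236). Pgam2, the muscle phosphoglycerate mutase, changed by -0.39 (adjusted p = 0.0207) and the pyruvate dehydrogenase kinase Pdk2 by -0.33 (adjusted p = 0.0569). Slc2a8 and Pgam2 were called in all 6 fits without a library, whereas Pdk2 was lost without parental replicate 3 (-0.28), M8 replicate 1 (-0.26) or M8 replicate 3 (-0.34). The count lower was 2 without parental replicate 3 or M8 replicate 1 (9.52%, beside 14.1% and 10.8% of all genes) and 3 without M8 replicate 3 (14.3%, beside 12.9%). The 2 higher genes, Pdhx at 0.22 and Pdhb at 0.20, encode parts of the pyruvate dehydrogenase complex and were called in all 6 fits without a library. Pdha1 and Dlat, which encode further parts of this complex, gave -0.015 and 0.0030 and did not pass.

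Of 30 further genes of the HIF pathway, 22 were tested, 4 were higher (18.2%, beside 21.2% of all genes) and 5 lower (22.7%, beside 16.5%), with a median of -0.054. Without parental replicate 1 the count lower was 10 (45.5%, beside 15.9%). Without parental replicate 2 or M8 replicate 1 it was 3 (13.6%, beside 12.6% and 10.8%). Without M8 replicate 2 the count higher was 2 (9.09%, beside 16.1%). Angptl4, a secreted inhibitor of lipoprotein lipase, had the largest difference. It measured 2.12, 2.68 and 2.74 FPKM in parental and 4.11, 5.11 and 5.47 in M8, a log2 fold change of 0.74 (SE 0.110, adjusted p = 0.00176) that was called in all 6 fits without a library. All M8 values lay well above the parental ones.

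The oxidase Ero1l, which forms disulfide bonds in the endoplasmic reticulum, measured 203, 329 and 275 FPKM in parental and 178, 201 and 215 in M8, a log2 fold change of -0.42 (adjusted p = 0.0571). Parental replicate 1 again lay inside the M8 range, and the call held without it (-0.61) or M8 replicate 3 (-0.48). It was lost without parental replicate 2 (-0.26) or 3 (-0.39) and without M8 replicate 1 (-0.34) or 2 (-0.43). The collagen lysyl hydroxylase Plod2 changed by -0.37 (adjusted p = 0.0397), a call that was lost without parental replicate 2 (-0.25) or M8 replicate 1 (-0.31). The genes lower besides these, Narf (-0.33), Insig2 (-0.31) and Plod1 (-0.27), were called in all 6 fits without a library. Of those higher besides Angptl4, Tpbg (0.31) was called in all 6, Egln2 (0.20) in 5 and Mif (0.23) in 1.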

How the data were processed

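Stranded mRNA libraries from 6 cell samples were read from 1 end. The authors used TopHat for alignment to mm10. Their deposited values are FPKM, 1 per gene symbol and sample. The submitters' processing notes name TopHat2 2.1.1, Bowtie2 2.2.8, SAMtools 0.1.18 and Cuffdiff 2.2.1. The annotation, the strand setting and the treatment of reads that match several genes are not given in the sources used here. Groups were taken from the labels.

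Python 3.11.15 (pandas 2.3.3, scipy 1.17.1, matplotlib 3.10.9) and R 4.3.3 were used. M8 was compared with parental in limma 3.58.1 (lmFit, eBayes with trend) on log2(FPKM + 1) over the 10597 genes with a mean of at least 1 FPKM, two-sided, with Benjamini-Hochberg adjustment over all of them and a threshold of 0.1, the study's. Isozyme ratios were compared by exact permutation tests. FPKM carries no counts, so no counting interval was given. The code was tested on simulated data.

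The members and lists were chosen with earlier results of these data known. Named were all members, and from each of the other lists the 3 genes past the threshold with the largest absolute fold change. Pdhx, Pdhb, Pdha1 and Dlat, and the remaining called genes of the HIF list, were added after their values were seen. Over all genes tested, deviations of same-numbered samples correlated at 0.10, -0.11 and -0.033, so the numbers were not taken as pairs. Within the set, replicate 1 was lowest in 30 of 35 genes in parental and in 25 in M8. The library most often highest was replicate 2 in parental and replicate 3 in M8.

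Positions are from GENCODE M21 (GRCm38). Near-identical genes lay outside the gene's own locus and matched at 95% identity or more over at least 200 bases. Promoter sequences are from RefSeq, and 1 window a gene was chosen by the number of GENCODE starts in it, then as the most upstream.

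Alternatives were other pseudocounts, filters, scalings, variance models and thresholds, a replicate block, and each replicate left out.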

Additional observations from a re-analysis of the deposited data

How the results depend on the processing

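Of the estimates for single genes of the set under other processing settings, 363 kept their direction and their side of the threshold, 10 passed in addition, 8 no longer passed and 9 changed sign. Those that no longer passed were Pfkfb4 with no filter on low values (adjusted p = 0.121), after quantile normalization (0.273), with the replicate block (0.110) and at a threshold of 0.05, Eno2 with no filter (0.189), with eBayes without a trend (0.118) and at 0.05, and Mxi1 with no filter (0.103). With a library left out, these numbers were 163, 17, 13 and 17. Differences in the isozyme ratios kept their sign under other pseudocounts. With a library left out, 2 pairs that overlapped between groups changed sign, Slc16a3 to Slc16a1 (0.014 in the main comparison, -0.20 without parental replicate 1, -0.060 without M8 replicate 3) and Bnip3l to Bnip3 (-0.12, and 0.013 without parental replicate 1). Genes of the set higher in M8, 1 in the main comparison, numbered 2 with no filter on low values, 2 with a mean of at least 5 FPKM, 2 after quantile normalization, 0 with a fold change of at least 1.5, and 1 to 8 with a library left out. Genes lower, 6 in the main comparison, numbered 3 with no filter, 5 with a mean of at least 5 FPKM and 7 after quantile normalization. They numbered 0 with a fold change of at least 1.5, and 3 to 16 with a library left out. Of all genes tested, 1992 were higher and 1622 lower with no filter, and 2212 and 1382 with a mean of at least 5 FPKM. The number of genes tested differs between these filters. After quantile normalization, 17.2% of all genes were higher and 16.7% lower. Over all genes, 42 were higher and 74 lower with a fold change of at least 1.5, and 1142 to 1681 were lower with a library left out, the fewest without M8 replicate 1. With the replicate block, 2171 genes were higher and 1688 lower, and the set had 3 higher (Ddit4, Eno1, Pgam1) and 7 lower (Bnip3l, Car9, Eno2, Mxi1, P4ha1, Pfkm, Vegfa), but the numbers are not known to pair the samples.

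The changes of sign concerned genes that did not pass in the main comparison. Under quantile normalization the log2 fold change was -0.018 for Slc2a1, -0.020 for Slc16a1, -0.021 for Hif1a and -0.019 for Higd1a. On TPM it was -0.031 for Pfkp, -0.0046 for Aldoa and -0.031 for Pdk1, and after upper-quartile scaling -0.021 for Pfkp and -0.021 for Pdk1. With a library left out it ran from -0.10 to 0.21 for Slc2a1, -0.049 to 0.30 for Pfkl, -0.14 to 0.10 for Pfkp, -0.14 to 0.19 for Aldoa, -0.20 to 0.073 for Pgk1, -0.046 to 0.21 for Ldha, -0.13 to 0.24 for Slc16a3, -0.15 to 0.12 for Pdk1, -0.16 to 0.052 for Egln1, -0.43 to 0.0075 for Bnip3, -0.10 to 0.12 for Car12, -0.25 to 0.035 for Ndrg1 and -0.16 to 0.18 for Higd1a. The cause was not tested. The files give no counts, and 3 libraries a group limit the precision, most of all where the parental libraries spread widely.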

Other observations

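Besides Eno1 and Eno1b, another pair of near-identical genes differed sharply between libraries of 1 group. How reads were assigned to them was not tested. Eif3j1 and Eif3j2, which encode a subunit of translation initiation factor 3, are 99.4% identical over 2379 aligned bases. Eif3j1 was listed at 22.9 FPKM in parental replicate 2 and 25.8 in M8 replicate 3, and at 0.0888 to 0.128 in the other 4 libraries. Eif3j2 stood at 13.9 and 13.8 FPKM in those libraries and at 32.1 to 39.6 in the others. Their sum was 32.2, 36.8 and 36.4 FPKM in parental and 39.7, 38.2 and 39.6 in M8. Eif3j1 had the largest excess of parental replicate 2 over replicate 1 of all genes ranked, at 4.45 on the log2(FPKM + 1) scale, whereas the sum was 36.8 and 32.2 FPKM in these libraries.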
